A study of Mus musculus with 4 samples.

Results

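The wells described here are those of mouse heart cell preparations that carried the transcripts of endocardial endothelium, the sheet of endothelial cells that lines the heart's chambers. A well is 1 barcoded position of a single-well RNA-seq chip. It entered the class when it had at least 10000 UMIs (unique molecular identifiers, each a counted RNA molecule) and at least 300 genes, when Npr3, Cytl1 and Vwf together made up at least 0.2% of its UMIs outside mitochondrial and haemoglobin genes, and when at least 2 of Npr3, Cytl1, Vwf, Plvap and Cgnl1 were detected. Of 3990 kept wells, 94 met the rule, and they are called endocardial-like wells below. The wells were thus chosen by the measured values of those 5 genes, which are given only as a description.

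The study profiled hearts of C57BL/6 mice that were KO, deficient in Mst1/2 (the Hippo pathway kinases encoded by Stk4 and Stk3), or WT. Low-speed centrifugation split each preparation into a non-cardiomyocyte (NCM) and a cardiomyocyte (CM) fraction, and each of the 4 libraries was 1 chip of 1 genotype and 1 fraction. The deposited per-well table named 2 animals of each genotype, KO1, KO2, WT1 and WT2, and the animal is the replicate throughout. The sources used here do not give the Mst1/2 alleles, any Cre driver, the animals' ages or any injury. Because KO and WT wells of a fraction were on separate chips, genotype and chip cannot be told apart.

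The NCM chips held 81 of the 94 wells, 14 from KO1, 21 from KO2, 19 from WT1 and 27 from WT2. The CM chips held 13, of which 6 came from KO1, 3 from KO2, 2 from WT1 and 2 from WT2. Kept wells had a median of 70186 to 144229 UMIs per library. No barcode occurred among the 94 wells in more than 1 library, although 856 barcodes of kept wells were found in more than 1 library. The doublet caller marked none of the 94 wells, although it marked only 1 to 13 wells per library. Mitochondrial genes took 58.8% and 32.6% of the summed UMIs of endocardial-like wells in KO1 and KO2, against 7.96% and 12.7% in WT1 and WT2, and other endothelial wells showed the same order. All levels below are therefore CPM (counts scaled to 1000000) of the UMIs outside mitochondrial and haemoglobin genes, summed over an animal's wells.

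Endocardial cells meet the blood of the chambers directly, and unlike capillary endothelium they do not carry fatty acids from blood into heart muscle. In the embryo they signal to the myocardium through neuregulin and NOTCH, and some become mesenchyme of the valve cushions. Npr3 encodes the receptor that clears natriuretic peptides and is a common marker of this lining. Cytl1 encodes a small secreted protein. Vwf encodes von Willebrand factor, which tethers platelets and is also made by large-vessel endothelium, Plvap a protein of fenestral and caveolar diaphragms, and Cgnl1 a junctional protein.

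Upstream sequence is shown for Cytl1, the rule gene with the highest level in 2 of the animals, for Hmcn1, a matrix gene higher in these wells, and for Rgcc, a capillary gene lower in them. Each run gives the 250 bases before the RefSeq start of the gene (GRCm38.p6), 5′ to 3′ on the gene's strand, and capitals mark matches on either strand to any of 3 strings. The first, TGTTTAC, is the core sequence read by forkhead transcription factors, a large family active in endothelium. A second string, AGATAA, holds the core of the sites read by GATA factors, which act in heart development. The last, TTTCCA, holds the core read by NFAT factors such as Nfatc1.
Cytl1, chr5:37735269-37735518, plus strand: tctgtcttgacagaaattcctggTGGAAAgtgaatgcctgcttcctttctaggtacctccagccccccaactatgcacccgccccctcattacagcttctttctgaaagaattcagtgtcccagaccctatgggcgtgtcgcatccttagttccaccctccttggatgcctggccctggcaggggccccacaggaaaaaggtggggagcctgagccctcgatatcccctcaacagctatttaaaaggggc
Hmcn1, chr1:150993436-150993685, minus strand: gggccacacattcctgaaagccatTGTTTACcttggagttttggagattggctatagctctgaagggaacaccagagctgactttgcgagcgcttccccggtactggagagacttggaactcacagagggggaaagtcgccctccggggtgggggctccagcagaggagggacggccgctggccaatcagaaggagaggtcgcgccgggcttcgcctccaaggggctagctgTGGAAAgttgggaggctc
Rgcc, chr14:79301636-79301885, minus strand: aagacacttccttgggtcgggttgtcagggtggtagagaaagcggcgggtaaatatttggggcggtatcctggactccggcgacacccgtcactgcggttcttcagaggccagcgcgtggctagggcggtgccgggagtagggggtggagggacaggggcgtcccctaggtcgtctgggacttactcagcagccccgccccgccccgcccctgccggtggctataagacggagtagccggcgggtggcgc
The Cytl1 window held 1 TTTCCA match, read as TGGAAA, the Hmcn1 window held 1 TGTTTAC and 1 TGGAAA, and the Rgcc window held none. Over 27025 mouse promoter windows of the same length, 3.09% held TGTTTAC, 10.25% AGATAA and 18.7% TTTCCA, so TTTCCA is a common string, and a match describes letters and not a bound site.

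Cytl1 was abundant in the endocardial-like wells of every animal, at 3628 CPM in KO1 and 5982 CPM in KO2, against 2898 CPM in WT1 and 2848 CPM in WT2. Vwf stood at 2259.6 and 1209 CPM in KO1 and KO2, against 3686 and 4273 CPM in WT1 and WT2. Npr3 was the lowest of the 3 genes that set the share, at 579 and 583 CPM in KO1 and KO2, against 518 and 714 CPM in WT1 and WT2. The KO and WT animals did not overlap for Cytl1, which was higher in KO, nor for Vwf, which was lower in KO, whereas Npr3 overlapped. Lack of overlap held for 37% of all genes tested between genotypes. For Cytl1, 1 well gave 1524 of the 2986 UMIs in KO1 and another 7061 of the 11794 in KO2. Without the first of these wells KO1 would lie below both WT animals. For Vwf, 1 well gave 5534 of the 11766 UMIs in WT2. Plvap was at 159 and 77.1 CPM in KO1 and KO2, against 364 and 255 CPM in WT1 and WT2, lower in KO without overlap. Of its 702 UMIs in WT2, 346 came from 1 well, and the lack of overlap rested on that well. Cgnl1 was at 294 and 77.6 CPM in KO1 and KO2, against 721 and 251 CPM in WT1 and WT2, and overlapped.

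Together, Npr3, Cytl1 and Vwf made up 0.647% and 0.777% of the UMIs outside mitochondrial and haemoglobin genes in KO1 and KO2, against 0.710% and 0.783% in WT1 and WT2. In the other endothelial wells of the NCM chips, those outside the class in which Pecam1, Cdh5, Egfl7, Esam and Tie1 made up at least 0.2% of such UMIs, the same 3 genes held 0.00814% and 0.00608% in KO1 and KO2, against 0.00775% and 0.00852% in WT1 and WT2. The wells just inside the rule stood at 0.2002%, 0.2003% and 0.2033%, and those just outside at 0.1944% and 0.1899%. The boundary was not empty, since 23 endocardial-like wells lay between 0.2% and 0.3%, 36 wells outside lay between 0.1% and 0.2%, and 12 wells passed the share but had fewer than 2 of the 5 genes.

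**Figure D1:**
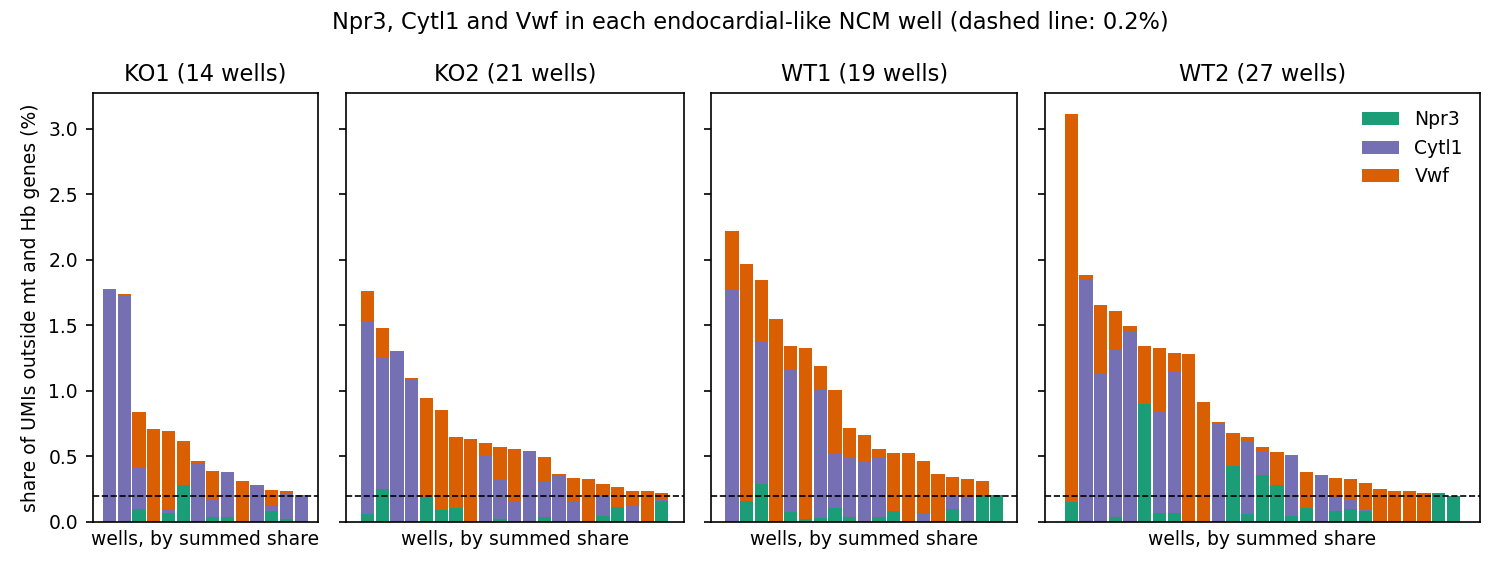
Share of UMIs outside mitochondrial and haemoglobin genes (percent, vertical axis) taken by Npr3, Cytl1 and Vwf in each endocardial-like well of the NCM chips (bars, 1 per well, ordered by their sum), in 1 panel per animal for KO1, KO2, WT1 and WT2; the dashed line is the 0.2% of the rule. In most wells either Cytl1 or Vwf is the tallest segment, and Npr3 leads in 9 of the 81.

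The plot of the rule genes by well shows that the 3 genes were not carried in fixed proportion. All 3 were detected in 30 of the 81 NCM wells, Cytl1 with Vwf in 19, Npr3 with Vwf in 16 and Npr3 with Cytl1 in 4. Cytl1 held the largest share in 36 wells, with a median of 0.544% and a maximum of 1.84%, and Vwf in another 36, with a median of 0.380% and a maximum of 2.96%. Npr3 led in 9 wells, 1 of them from KO2, 2 from WT1, 6 from WT2 and none from KO1. Across the 81 wells the Spearman correlation was -0.45 between Cytl1 and Vwf, -0.26 between Npr3 and Cytl1 and 0.11 between Npr3 and Vwf. These values describe wells that share 4 animals and a rule on the sum of the same genes.

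Vwf was the only one of the 3 genes detected in 8 wells, and fewer of these carried the other genes described below. Smoc1, a secreted matricellular protein, was detected in 1 of these 8 wells, against 33 of the 73 wells with Npr3 or Cytl1. Hmcn1 was detected in 2 of the 8 and in 42 of the 73, and Cpe in 4 of the 8 and in 61 of the 73. Capillary markers had a median of 0.319% of UMIs in the 8 wells and 0.152% in the 73. The 8 wells came from all animals, 1 each from KO1 and KO2 and 3 each from WT1 and WT2.

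The label was checked against markers that the rule did not use. At least 2 of the 5 pan-endothelial genes Pecam1, Cdh5, Egfl7, Esam and Tie1 were detected in 74 of the 81 wells, with Egfl7, a secreted endothelial protein, in 64, and Pecam1, the adhesion molecule CD31, in 62. Such detection is a weak check, since Egfl7 was found in 79.0% of these wells and in 59.6% of the other kept NCM wells. By level, the 5 genes held 0.175%, 0.125%, 0.235% and 0.129% of UMIs in KO1, KO2, WT1 and WT2. The other kept NCM wells had 0.109%, 0.0558%, 0.0265% and 0.0589%. Only 26 of the 81 reached the 0.2% share of these genes that defined the other endothelial wells. Lymphatic markers stayed at or under 0.00932% of UMIs in every animal's sum. They were also scarce in the other kept NCM wells, at 0.00868% to 0.0250%, and in WT1 the endocardial-like share was the higher one. Their low share therefore does not set these wells apart. Capillary markers had a median of 0.156% per well, against 1.25% in other endothelial wells.

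Transcripts of other cell types were present in part of the class. Fibroblast markers held 2.08% of the UMIs of endocardial-like wells in KO1 and 0.634% in KO2, against 0.443% in WT1 and 0.584% in WT2. In other endothelial wells they held 0.418% and 0.516% in KO1 and KO2, against 0.350% and 0.250% in WT1 and WT2. All 8 fibroblast markers had UMIs in both kinds of well, and 18 of the 81 endocardial-like wells held at least 1% of fibroblast markers. KO1 thus had the highest fibroblast share of the 4 animals. Cardiomyocyte markers passed 1% in 6 of the 81 NCM wells and macrophage markers in 1, while all 13 wells on the CM chips passed 1% for cardiomyocyte markers. Their part in the results below was not tested beyond the counts given without such wells.

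Against all other kept wells of the same NCM chips, the genes with the largest smallest fold over the 4 animals were, after Cytl1, Npr3 and Vwf themselves, Tmem108, Smoc1, Hmcn1, Kank1 and Ece1. Ece1, the enzyme that activates endothelin, was at 632 and 723 CPM in endocardial-like wells of KO1 and KO2, against 525 and 567 CPM in those of WT1 and WT2; in the other kept wells it was at 112 and 86.6 CPM in KO1 and KO2, against 41.2 and 68.5 CPM in WT1 and WT2. It was detected in 64 of the 81 wells, the most widely of these 5 genes. Kank1, a cytoskeletal adaptor, was detected in 31, and its log2 fold over the other wells was at least 2.64 in each animal. S100a8, a neutrophil alarmin, stood at the other end, at 9.72 and 47.2 CPM in endocardial-like wells of KO1 and KO2 and 164 and 13.1 CPM in those of WT1 and WT2; the other kept wells had 263 and 252 CPM in KO1 and KO2 and 720.0 and 342 CPM in WT1 and WT2. These folds are descriptions and carry no test.

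The sharper comparison is with other endothelial wells of the same animals, which numbered 137 in KO1, 68 in KO2, 32 in WT1 and 101 in WT2 on the NCM chips. Counts were summed per animal and kind of well and compared with edgeR's quasi-likelihood test, with the animal as a block and Benjamini-Hochberg adjustment over all genes; the 5 rule genes and the 5 gate genes are left out of what follows. Of 11146 genes tested, 13 passed an adjusted p of 0.05 (0.117%), 11 higher (0.0987%) and 2 lower (0.0179%) in endocardial-like wells. Smoc1, Hmcn1, Cpe, Mgp, Igfbp5, Nupr1, Dcn and Apoe were among the genes that rose, and the genes that fell were Rgcc and Thrsp. At an unadjusted p under 0.05 there were 845 genes (7.58%). The median log2 fold change over all genes was -0.49, so a value near -0.49 is that of a typical gene.

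Smoc1 had the smallest p. It was at 309.8 and 1567 CPM in endocardial-like wells of KO1 and KO2 and at 119 and 31.6 CPM in those of WT1 and WT2, with 92.9% of the KO2 UMIs from 1 well. In other endothelial wells it was at 1.05 and 0.579 CPM in KO1 and KO2 and at 0 and 0.105 CPM in WT1 and WT2, where 0 UMIs in WT1 allow up to 1.38 CPM. Every endocardial-like value lay above every other value, and the fitted log2 fold change, which depends on the prior count because WT1 was at 0, was 9.75 (SE 0.98, edgeR adjusted p = 0.000192). It was the only one of the 13 that stayed past the threshold under each of the 19 alternatives in which it could be fitted, with an adjusted p of at most 0.0301. The UMIs came from 34 of the 81 wells.

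Hmcn1, which encodes the large matrix protein hemicentin, was at 937 and 94.9 CPM in endocardial-like wells of KO1 and KO2 and 547 and 339.9 CPM in those of WT1 and WT2. Other endothelial wells had 19.8 and 7.24 CPM in KO1 and KO2 and 2.77 and 5.35 CPM in WT1 and WT2. The animals' ranges did not overlap, and the log2 fold change was 6.06 (SE 0.83, edgeR adjusted p = 0.00334). Hmcn1 was detected in 18 of the 36 wells led by Cytl1, 20 of the 36 led by Vwf and 6 of the 9 led by Npr3.

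Cpe, which encodes the prohormone-processing carboxypeptidase E, was at 1238 and 217 CPM in endocardial-like wells of KO1 and KO2 and at 779 and 1029 CPM in those of WT1 and WT2. Its level in other endothelial wells was 59.9 and 64.6 CPM in KO1 and KO2 and 13.4 and 28.4 CPM in WT1 and WT2 (log2 fold change 4.71, SE 0.71, edgeR adjusted p = 0.00840). Each endocardial-like value lay above all 4 other endothelial values.

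Mgp, matrix Gla protein, an inhibitor of vascular calcification, was at 6796 and 6106 CPM in endocardial-like wells of KO1 and KO2 and 4627 and 5079 CPM in those of WT1 and WT2. Other endothelial wells had 1049 and 1887 CPM in KO1 and KO2 and 1055 and 777 CPM in WT1 and WT2. The difference was 2.69 on the log2 scale (SE 0.28, edgeR adjusted p = 0.000196). It was one of level and not of detection, since Mgp had UMIs in 80 of the 81 wells and in 335 of the 338 other endothelial wells. Nupr1, a stress-induced chromatin protein, was at 1374 and 1683 CPM in KO1 and KO2 and 1140.4 and 893 CPM in WT1 and WT2, against 349.6 and 486 CPM in KO1 and KO2 and 172 and 96.9 CPM in WT1 and WT2 in other endothelial wells (log2 fold change 2.80, SE 0.45, edgeR adjusted p = 0.00974). Neither gene overlapped between the kinds of well.

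Igfbp5, which binds insulin-like growth factors, was at 524 and 2540.3 CPM in KO1 and KO2 and 271 and 429 CPM in WT1 and WT2, against 19.1 to 67.9 CPM in other endothelial wells (log2 fold change 4.31, SE 0.67, edgeR adjusted p = 0.00891); 1 well gave 93.8% of the KO2 UMIs. Dcn, decorin, is also a fibroblast gene, and it was at 7685 and 2325 CPM in KO1 and KO2 and 2795 and 3094 CPM in WT1 and WT2, against 909 to 1309 CPM in other endothelial wells (log2 fold change 2.11, SE 0.33, edgeR adjusted p = 0.00891). Without wells that held at least 1% of another cell type's markers, the Dcn log2 fold change was 1.43 with an adjusted p of 0.148. Apoe, apolipoprotein E, was higher in 3 of the 4 animals, with a log2 fold change of 1.502 (SE 0.24, edgeR adjusted p = 0.00891). A2m and Fgf14 also passed, but their UMIs came from 1 or 2 wells in each animal.

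Thrsp, a regulator of fatty acid synthesis, was nearly absent from the endocardial-like wells of the NCM chips, at 7.29 and 3.04 CPM in KO1 and KO2 and 0.675 and 0.726 CPM in WT1 and WT2. Other endothelial wells had 432 and 305 CPM in KO1 and KO2 and 607 and 629 CPM in WT1 and WT2. The fall was to a log2 fold change of -7.39 (SE 1.05, edgeR adjusted p = 0.00438), with no overlap. Rgcc, a cell-cycle regulator abundant in capillary endothelium, was at 164 and 250.1 CPM in KO1 and KO2 and 127 and 796 CPM in WT1 and WT2, and 61.5% to 97.9% of each of these sums came from 1 well. In other endothelial wells it was at 1196 and 2087 CPM in KO1 and KO2 and 1519 and 3035 CPM in WT1 and WT2 (log2 fold change -2.47, SE 0.45, edgeR adjusted p = 0.0394).

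The calls depended on which animals entered the fit. Without KO1, 1 gene passed, Smoc1, and the adjusted p of the 11 others named by the rule for named genes was at least 0.108; without WT2, 3 genes passed; without WT1, 12 passed; and without KO2, 24 passed. No named gene changed direction. Without wells rich in the markers of another cell type, 19 genes passed, Dcn and Fgf14 lost the call, and the 10 others kept it.

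**Figure D2:**
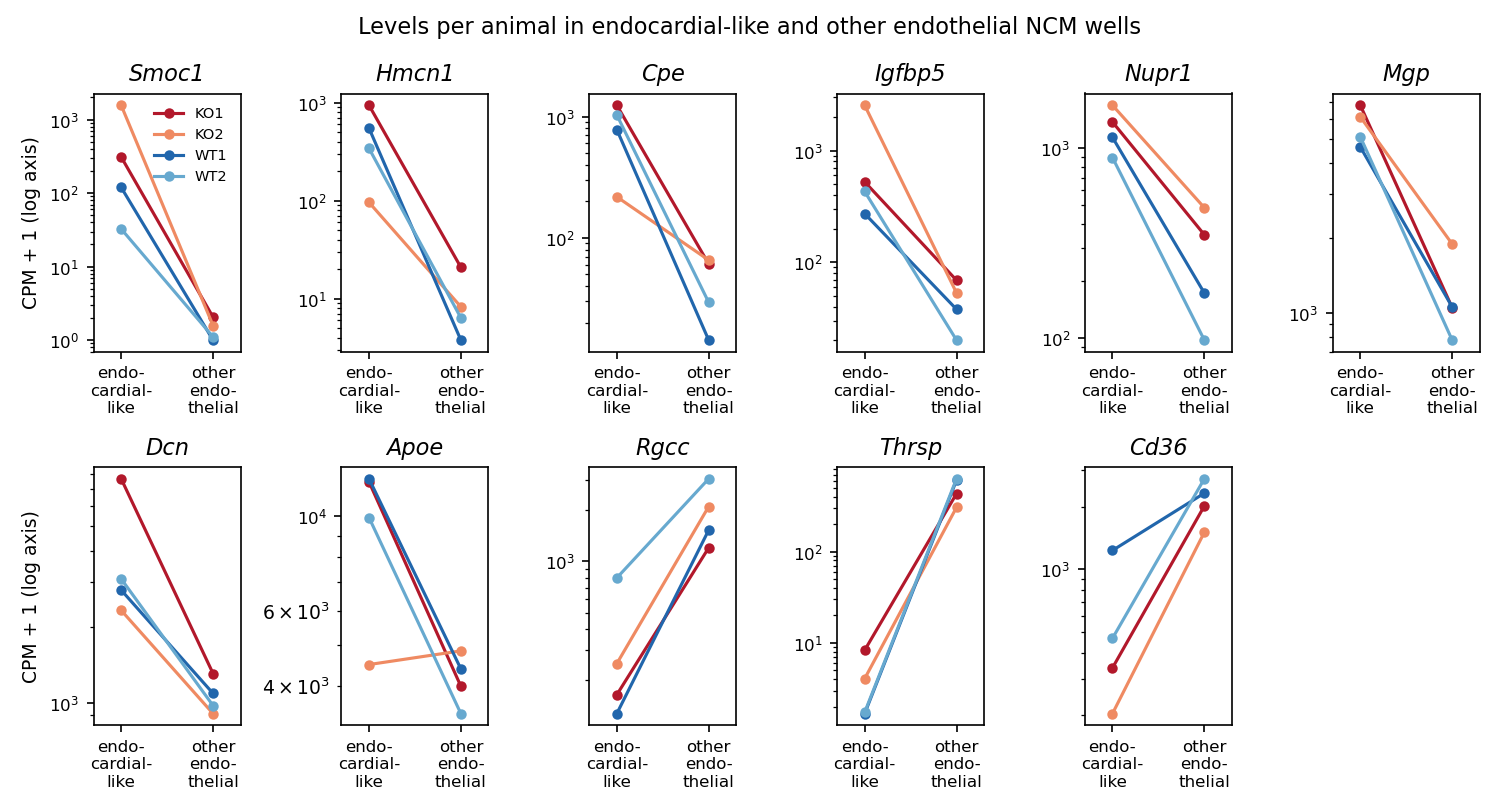
Level of 11 genes (CPM + 1, log axis) in endocardial-like wells (left of each panel) and other endothelial wells (right) of the NCM chips, with 1 line per animal. The 3 genes at the end, Rgcc, Thrsp and Cd36, run upward to the right in every animal, and Smoc1, Hmcn1, Cpe, Igfbp5, Nupr1, Mgp and Dcn run downward in every animal; Apoe does so in 3 of 4.

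The plot of levels by animal includes Cd36, the fatty acid transporter, which is the gene among the 11 that did not pass. Cd36 was at 337 and 203 CPM in endocardial-like wells of KO1 and KO2 and 1232 and 467 CPM in those of WT1 and WT2. Other endothelial wells had 2014 and 1507 CPM in KO1 and KO2 and 2318 and 2718 CPM in WT1 and WT2. The animals did not overlap, and the log2 fold change was -1.86 (SE 0.41, edgeR adjusted p = 0.183).

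Among listed genes known from endocardium but absent from the rule, 18 of 20 could be tested. Their median log2 fold change was 4.20, against -0.49 over all genes. This list and the capillary list below were drawn up with earlier results of these data known. Their values therefore describe the wells and do not test the label. Of the 18, 16 had a positive and 2 a negative fold change, 2 passed the adjusted threshold (Smoc1 and Hmcn1), and 12 had an unadjusted p under 0.05 with a positive sign, against 2.21% of all genes. In 10 of them the level was higher in every animal, against 2.69% of all genes. Tmem108, a membrane protein, was at 139.7 and 1068 CPM in KO1 and KO2 and 96.5 and 19.97 CPM in WT1 and WT2, against 0.422 and 1.16 CPM in KO1 and KO2 and 47.1 and 1.57 CPM in WT1 and WT2 in other endothelial wells (log2 fold change 5.92, SE 1.54, edgeR adjusted p = 0.339). Cdh11, a cadherin of mesenchymal and valve cells, had a log2 fold change of 4.79 (SE 1.19, edgeR adjusted p = 0.258). Emcn, the sialomucin endomucin, was at 1049.6 and 592 CPM in KO1 and KO2 and 1098 and 1309.9 CPM in WT1 and WT2, against 172 to 394 CPM in other endothelial wells (log2 fold change 2.28, SE 0.48, edgeR adjusted p = 0.133).

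The developmental regulators on the endocardial list differed in how widely they were detected. Foxc1, a forkhead transcription factor, was the most widely detected of those named here, in 26 of the 81 wells, and at equal depth, thinned as described below, in 18.75% of endocardial-like against 3.604% of other endothelial wells. It was at 101 and 13.7 CPM in KO1 and KO2 and 136 and 140.2 CPM in WT1 and WT2, against 6.12 and 3.48 CPM in KO1 and KO2 and 10.2 and 42.9 CPM in WT1 and WT2 in other endothelial wells, higher in each animal (log2 fold change 3.24, SE 1.09, edgeR adjusted p = 0.543). Gata6, a GATA factor of heart development, had UMIs in 20 of the 81 wells, and in 11.25% against 2.70% at equal depth. The transcription factors Tbx20 and Hand2 had UMIs in 21 and 13 of the 81 wells. Nfatc1, the transcription factor of the valve endocardium, was at 14.6 and 1.01 CPM in KO1 and KO2 and 7.43 and 3.27 CPM in WT1 and WT2, against 2.61 to 12.7 CPM in other endothelial wells, a log2 fold change of -0.02. Nrg1, the neuregulin ligand, was at 10.9 and 12.7 CPM in KO1 and KO2 and 58.7 and 4.72 CPM in WT1 and WT2, against 0 to 1.74 CPM in other endothelial wells (log2 fold change 6.17, SE 1.87, edgeR adjusted p = 0.463), and it was detected in 7 of the 81 wells. Gata4 had UMIs in 4 of the 81 wells and Gata5 in none, and neither could be tested. At equal depth, 0 of 80 thinned wells had a Gata5 UMI, which allows a share of up to 3.75%.

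Capillary genes ran the other way. All 20 listed were tested, 19 had a negative log2 fold change, 14 of them with an unadjusted p under 0.05 (5.37% of all genes), and the median was -2.20 against -0.49 over all genes. Rgcc passed the adjusted threshold. In 16 of the 20 the level was lower in every animal, against 16.5% of all genes. Kdr, the VEGF receptor, was at 176 and 7.61 CPM in KO1 and KO2 and 35.1 and 210.3 CPM in WT1 and WT2, against 782 and 363 CPM in KO1 and KO2 and 1167 and 641 CPM in WT1 and WT2 in other endothelial wells (log2 fold change -3.19, SE 0.78, edgeR adjusted p = 0.254). Fabp4, a fatty acid carrier, was at 1713 and 908 CPM in KO1 and KO2 and 3749 and 3604 CPM in WT1 and WT2, against 5941 and 3870.5 CPM in KO1 and KO2 and 6403 and 9711 CPM in WT1 and WT2 (log2 fold change -1.14, SE 0.26, edgeR adjusted p = 0.203). Gpihbp1, which carries lipoprotein lipase across capillary endothelium, differed by -1.68 (SE 0.69, edgeR adjusted p = 0.615), and its 102 to 2075 CPM over the 4 animals stayed below the 2172 to 6282 CPM of other endothelial wells.

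Endocardial-like wells were deeper in each animal, most of all in KO1. Their median was 62282.5, 34064, 38231 and 76250 UMIs outside mitochondrial and haemoglobin genes in KO1, KO2, WT1 and WT2. Other endothelial wells had 26313, 31944.5, 34713 and 56358. Detection was therefore compared after thinning each well to 5000 such UMIs. This left 80 endocardial-like wells, 333 other endothelial wells and 148 wells rich in macrophage markers, the last serving as a cell type that should lack these genes. Hmcn1 was then detected in 48.75% of endocardial-like wells, against 2.10% of other endothelial and 2.03% of macrophage-marker wells. Smoc1 was detected in 26.25%, against 0% of both others, where 0 wells allow up to 0.901% and 2.03%. Cpe stood at 66.25%, against 9.61% and 3.38%.

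**Figure D3:**
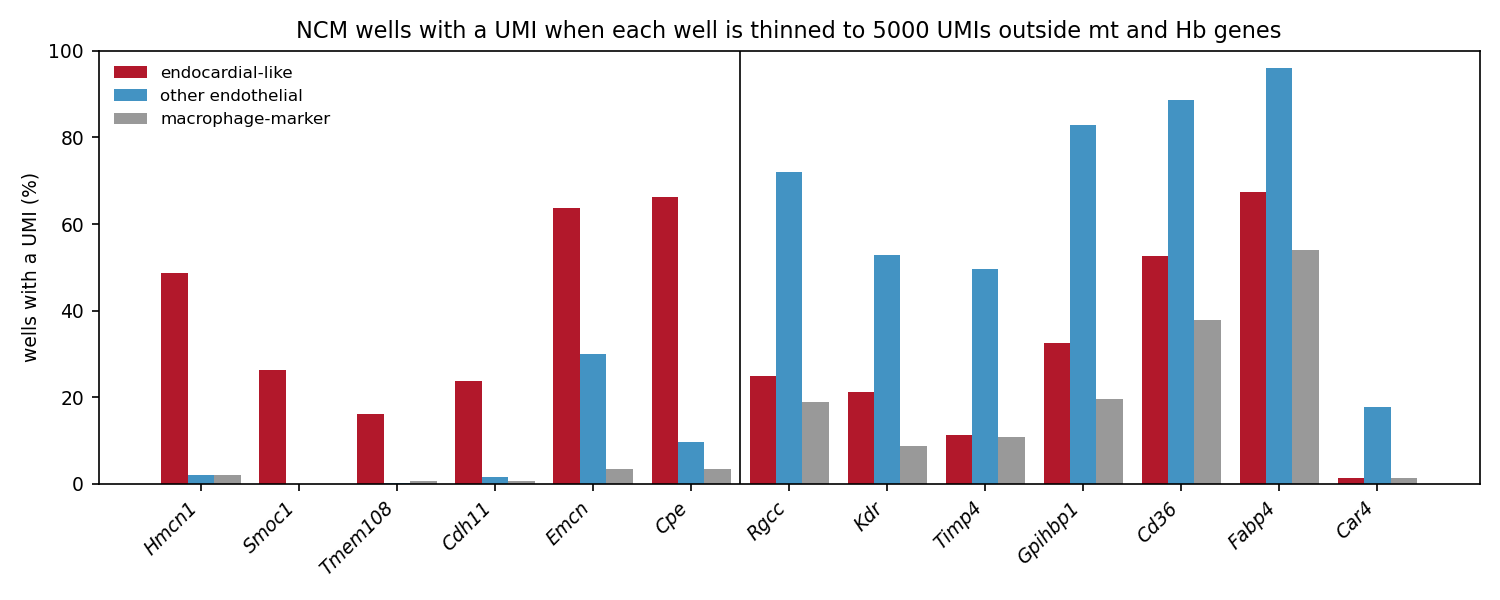
Share of NCM wells with at least 1 UMI (percent) after thinning to 5000 UMIs outside mitochondrial and haemoglobin genes, in 80 endocardial-like, 333 other endothelial and 148 macrophage-marker wells. On the left are 5 genes of the endocardial list and Cpe, which is on no list and was called in these data. On the right are 7 capillary genes. Endocardial-like bars are the tallest for the 6 genes on the left, and other endothelial bars for the 7 on the right.

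In the plot of detection at equal depth, capillary genes in endocardial-like wells sat near their macrophage-marker background for several genes and above it for others. Rgcc was detected in 25% of endocardial-like wells, against 72.1% of other endothelial and 18.9% of macrophage-marker wells. Timp4, an inhibitor of matrix metalloproteinases, was detected in 11.25%, against 49.5% and 10.8%. Car4, a capillary carbonic anhydrase, was detected in 1.25%, against 17.7% and 1.35%. Timp4 and Car4 were thus near the macrophage-marker percentage pooled over animals. That pool is not matched by animal, with 15, 15, 49 and 69 wells from KO1, KO2, WT1 and WT2. Capillary markers held 0.222%, 0.126%, 0.0397% and 0.0665% of its UMIs in these animals. Kdr was at 21.25%, against 52.9% and 8.78%, and Gpihbp1 at 32.5%, against 82.9% and 19.6%. Emcn, common to much endothelium, was at 63.75%, against 30.03% and 3.38%.

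The same comparison on counts summed over the thinned wells, an alternative chosen after seeing the data, called 69 of 4195 genes (1.64%), 33 higher (0.787%) and 36 lower (0.858%); 11 of the 13 genes called above were among them. Of the 36 lower, 3 were gate genes of the other endothelial wells. Of the 20 listed capillary genes 13 fell, and of the 20 listed endocardial genes 5 rose. Kdr (log2 fold change -2.81), Cd36 (-2.48), Gpihbp1 (-2.46), Fabp4 (-1.83) and Lpl (-1.95), lipoprotein lipase, were among those that fell, and Tmem108 (5.52), Cdh11 (4.24) and Emcn (1.79) among those that rose. Also higher were the imprinted RNA H19 (3.16) and its neighbour Igf2 (2.92), Vcam1 (3.12), an adhesion molecule for leukocytes, Cyp1b1 (4.42), a flow-responsive cytochrome, Entpd1 (2.21), the ectonucleotidase that removes extracellular ATP and ADP, and Heg1 (1.95), a transmembrane partner of the CCM complex at endothelial junctions. Also lower were the collagen IV chains Col4a1 (-1.37) and Col4a2 (-2.64) and Cav1 (-1.39), the caveolar coat protein.

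On the full counts, no member of the lists of other pathways passed the adjusted threshold in edgeR with TMM. With DESeq2, Jag2, Notch4, Hey1, Sema3g, Robo4, Col4a2 and Cdk1 passed as lower and Selp, Vcam1, Cyp1b1, Entpd1, Bmp6 and Ccn2 as higher, and in edgeR with library totals Col4a2 and Ly6c1 passed as lower. Of the 9 NOTCH genes tested 8 had a negative fold change, 3 with an unadjusted p under 0.05 (5.37% of all genes), and the median was -3.00. Hey1, a NOTCH target, was at 0, 0, 0 and 0.726 CPM in the endocardial-like wells of KO1, KO2, WT1 and WT2, against 101, 14.5, 9.69 and 14.1 CPM in the other endothelial wells of KO1, KO2, WT1 and WT2. Its zeros allow up to 3.65 CPM in KO1, 1.52 CPM in KO2 and 2.03 CPM in WT1. Hey1 was thus lower in each animal, and so was the receptor Notch4, at 4.86, 42.1, 6.75 and 1.45 CPM in KO1, KO2, WT1 and WT2, against 179, 65.7, 39.2 and 79.0 CPM in other endothelial wells (log2 fold change -3.25, SE 1.46, edgeR adjusted p = 0.634). Of 12 arterial genes tested, 9 had a negative sign, with a median of -1.44, among them Sox17, an arterial transcription factor (log2 fold change -1.69, SE 1.59). Of 7 venous genes 5 had a positive sign, with a median of 1.58. Vcam1 was at 136, 576, 419 and 914 CPM in KO1, KO2, WT1 and WT2, against 101, 175, 12.5 and 186 CPM in other endothelial wells, higher in each animal (log2 fold change 2.71, SE 0.75, edgeR adjusted p = 0.3999). Lymphatic genes (6 tested, 1 with a positive sign) had a median of -0.94.

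All 13 basement membrane genes had a negative sign and 10 were lower in every animal, against 16.5% of all genes, with a median of -0.72 against -0.49 over all genes. Col4a2 was at 49.8, 26.4, 144 and 147 CPM in KO1, KO2, WT1 and WT2, against 643, 707, 754 and 567 CPM in other endothelial wells (log2 fold change -2.81, SE 0.64, edgeR adjusted p = 0.203). Its partner chain Col4a1 was at 475, 169, 606 and 295 CPM, against 1387, 1051, 1495 and 1113 CPM in the other endothelial wells (log2 fold change -1.47, SE 0.44, edgeR adjusted p = 0.458). Neither chain overlapped between the kinds of well. Caveolar genes (6 tested, 1 with a positive sign) had a median of -0.77, and Cav1 was at 510.2, 128, 351 and 315 CPM, against 848, 738, 745 and 995 CPM in other endothelial wells, lower in each animal (log2 fold change -1.12, SE 0.50, edgeR adjusted p = 0.634).

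Of 15 BMP and TGF-beta genes tested, 9 had a positive sign, 5 with an unadjusted p under 0.05 (2.21% of all genes), and the median was 1.19. Eng, the co-receptor endoglin, was at 207, 93.3, 215 and 191 CPM in KO1, KO2, WT1 and WT2, against 64.1, 18.0, 61.4 and 100.1 CPM in other endothelial wells, higher in each animal. Bmp6, a ligand, was at 29.2, 10.1, 7.43 and 30.9 CPM, against 0.844, 0.579, 1.38 and 2.31 CPM in other endothelial wells. The ligand and co-receptor were thus higher in every animal while their target Id1, an inhibitor of bHLH factors, was lower in every animal, at 148, 55.8, 167 and 45.8 CPM against 225, 198, 169 and 514 CPM (log2 fold change -1.03, SE 0.79). Genes of endothelial-to-mesenchymal transition (12 tested, 7 with a positive sign) had a median of 0.37.

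Genes that respond to shear stress (8 tested, 6 with a positive sign) had a median of 0.69. Klf2, the flow-induced transcription factor, spread widely, at 75.3 and 2161 CPM in KO1 and KO2 and 614 and 162 CPM in WT1 and WT2, against 194 to 335 CPM in other endothelial wells, so the animals overlapped (log2 fold change 0.63, SE 0.82). Cyp1b1 was at 209, 56.3, 97.2 and 99.1 CPM in KO1, KO2, WT1 and WT2, against 6.54, 16.5, 1.85 and 1.68 CPM in other endothelial wells, with no overlap (log2 fold change 5.01, SE 1.20, edgeR adjusted p = 0.232). Of 11 haemostasis genes tested, Vwf apart, 7 had a positive sign, with a median of 0.30, and Entpd1 was at 282, 269, 290.3 and 448 CPM, against 66.0, 30.4, 42.0 and 94.3 CPM in other endothelial wells, again with no overlap (log2 fold change 2.94, SE 0.71, edgeR adjusted p = 0.243). Thbd, thrombomodulin, the thrombin-binding anticoagulant receptor, overlapped, at 48.3 to 311 CPM in endocardial-like wells against 58.5 to 136 CPM in other endothelial wells.

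Hippo core genes (13 tested, 7 with a positive sign, median 0.01) and YAP target genes (11 tested, 6 with a positive sign, median 0.24) had medians above that of all genes. Wwtr1, the YAP paralogue TAZ, was at 241, 167, 309.9 and 304 CPM in KO1, KO2, WT1 and WT2, against 189, 43.2, 93.7 and 161 CPM in other endothelial wells (log2 fold change 1.60, SE 0.72, edgeR adjusted p = 0.634), with 71.8% to 97.0% of each endocardial-like sum from 1 well. The YAP target Ccn2, a matricellular protein, was at 339, 1565, 125 and 453 CPM, against 125, 178, 58.6 and 88.4 CPM in other endothelial wells (log2 fold change 2.36, SE 0.62, edgeR adjusted p = 0.339). Both were higher in each animal. Pan-endothelial genes outside the gate (8 tested, 4 with a positive sign, median -0.02), leukocyte adhesion genes (9 tested, 7 positive, median 0.55), MHC class II genes (6 tested, 5 positive, median 0.73), immediate early genes (11 tested, 8 positive, median 0.37) and leukotriene genes (4 tested, 2 positive, median -0.37) also had medians above the -0.49 of all genes. Natriuretic peptide genes other than Npr3 (4 tested, none positive) and cell cycle genes (10 tested, 1 positive, median -1.72) completed the lists.

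The 13 wells on the CM chips, which also carried cardiomyocyte transcripts, showed several of the same genes. Hmcn1 was at 1087 and 151 CPM in KO1 and KO2 and 203 and 231 CPM in WT1 and WT2, against 7.11 and 10.8 CPM in KO1 and KO2 and 24.5 and 11.1 CPM in WT1 and WT2 in the other kept CM wells. Smoc1 was at 209.6 and 22.2 CPM in KO1 and KO2 and 229 and 39.4 CPM in WT1 and WT2, against 0.3334 to 3.68 CPM in the other wells. Both genes were higher in the endocardial-like wells of all 4 animals, while Cpe was lower in KO2, at 59.8 CPM against 128 CPM. Thrsp did not show the low level of the NCM wells, at 75.9 and 226 CPM in KO1 and KO2 and 0 and 439 CPM in WT1 and WT2, against 86.0 and 70.2 CPM in KO1 and KO2 and 46.3 and 40.5 CPM in WT1 and WT2 in the other kept CM wells. It was thus higher in the endocardial-like wells of KO2 and WT2, from UMIs of 1 or 2 wells in each animal, and the 0 in WT1 allows up to 19.1 CPM. With 2 to 6 wells per animal these values were not tested, and they come from the same animals as the NCM wells.

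Endocardial-like wells made up 1.96% (95% Clopper-Pearson interval 1.07% to 3.26%) of the kept NCM wells in KO1 and 2.81% (1.75% to 4.27%) in KO2, against 2.75% (1.66% to 4.25%) in WT1 and 3.84% (2.55% to 5.54%) in WT2. The KO mean was 2.38% and the WT mean 3.29%, and the animals overlapped, with a difference of -0.91 percentage points (two-sided exact permutation p = 0.667, n = 2 animals each, where the smallest possible p is 0.3333). Of all endothelial wells they made up 9.27% (5.16% to 15.1%) in KO1 and 23.6% (15.2% to 33.8%) in KO2, against 37.3% (24.1% to 51.9%) in WT1 and 21.1% (14.4% to 29.2%) in WT2. The difference was -12.7 percentage points (exact permutation p = 0.667) and again overlapped. The overlap depended on how the wells were chosen, since in 6 of 11 alternatives both KO animals lay below both WT animals in the share of kept wells, and in 1 of 11 in the share of endothelial wells. At a gate of 0.4% the share of kept wells was 0.979% and 1.74% in KO1 and KO2, against 2.02% and 2.28% in WT1 and WT2, and without wells rich in other markers it was 1.403% and 3.84% in KO1 and KO2, against 4.30% and 4.79% in WT1 and WT2. Each of these 6 differences had an exact permutation p of 0.3333, the smallest possible. The 6 are not equally informative. A limit of 30% mitochondrial UMIs left 18 kept wells in KO1 and 160 in KO2, with 0 and 2 endocardial-like wells among them. Requiring the pan-endothelial gate left 4 endocardial-like wells in KO1 and 3 in KO2. The alternative with at least 2 pan-endothelial genes detected was not planned. Intervals cover counting error only, wells of an animal are not independent samples, and a share of wells also depends on how the heart was dissociated.

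**Figure D4:**
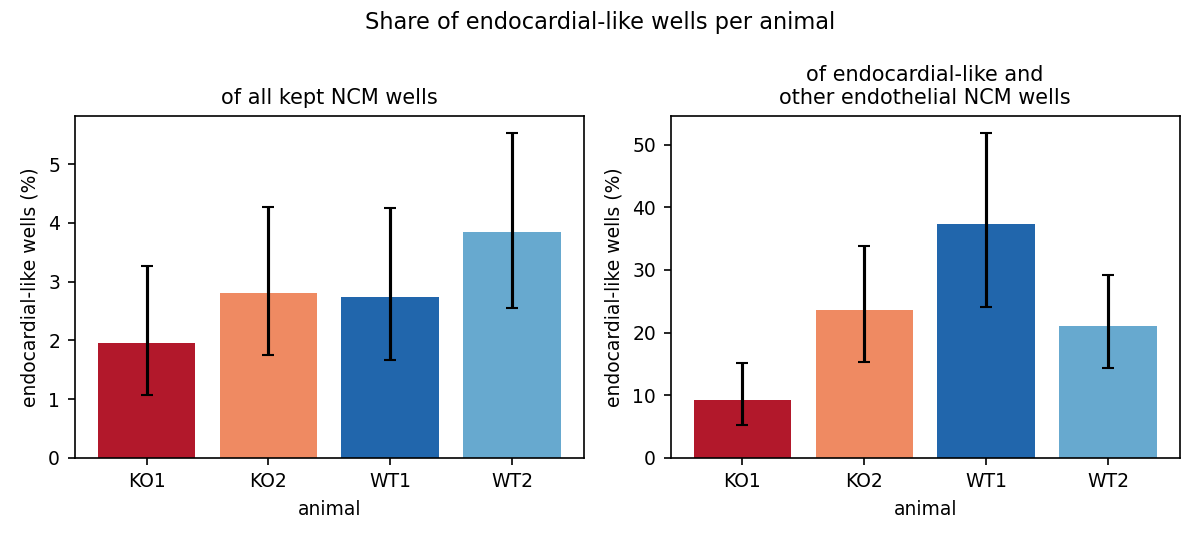
Endocardial-like wells as a percentage of kept NCM wells (left panel) and of endothelial NCM wells (right panel) in KO1, KO2, WT1 and WT2. Bars are shares and error bars are 95% Clopper-Pearson intervals. With the rule as given, KO and WT animals overlap in both panels, and KO1 is the lowest in each.

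As the plot of shares by animal shows, KO1 was the lowest animal in both denominators, at 14 of 715 kept wells and 14 of 151 endothelial wells. On the CM chips the shares were 2.27% in KO1 and 0.779% in KO2, against 0.952% in WT1 and 0.730% in WT2.

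Between genotypes, within the endocardial-like wells of the NCM chips, the targeted genes were examined first. Stk4, which encodes Mst1, was at 2.43 CPM in KO1 and 3.55 CPM in KO2, against 95.2 CPM in WT1 and 20.7 CPM in WT2, from 2 and 7 UMIs in KO and 141 and 57 UMIs in WT. Stk3, which encodes Mst2, was at 31.6 CPM in KO1 and 1.52 CPM in KO2, against 48.6 CPM in WT1 and 125 CPM in WT2. Both were lower in KO without overlap, as 37% of all genes also did not overlap. Neither passed the threshold (edgeR log2 fold change -3.76, SE 2.09, unadjusted p = 0.0995 for Stk4, and -2.46, SE 1.86 for Stk3). A tag outside the deleted exons would still be counted, so these genes check the labels only in part.

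Of 7406 genes tested for KO against WT with edgeR's quasi-likelihood test, 0 passed the adjusted threshold (0%); 607 reached an unadjusted p under 0.05 (8.2%), of which 309 were higher (4.17%) and 298 lower (4.02%) in KO. With DESeq2 253 genes passed. The edgeR count was 246 without KO1 and 31 without KO2, in fits that assume the lone KO animal varies like the WT animals. KO and WT animals did not overlap for 2738 genes (37%), so lack of overlap is common here. Mitochondrial UMIs moved with genotype, at 58.8% and 32.6% of all UMIs in these wells of KO1 and KO2, against 7.96% and 12.7% in WT1 and WT2. Haemoglobin UMIs did too, at 3.73% and 13.7% in KO1 and KO2, against 0.323% and 0.436% in WT1 and WT2, and the part of either in the result was not tested.

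Genes of endothelial-to-mesenchymal transition had a positive sign in KO in all 9 tested. Of these, 6 did not overlap, against 37% of all genes, and 2 had an unadjusted p under 0.05 in edgeR, against 8.2% of all genes. Their median log2 fold change was 1.97, against 0.01 over all genes. Vim, the intermediate filament vimentin, was at 3484 and 5812 CPM in KO1 and KO2, against 1407 and 1865 CPM in WT1 and WT2 (log2 fold change 2.00, SE 0.83, unadjusted p = 0.0337). Col3a1, a fibrillar collagen chain, was at 1155 and 2719 CPM in KO1 and KO2, against 261 and 973 CPM in WT1 and WT2 (log2 fold change 2.21, SE 1.04). Zeb2, a transcription factor of that transition, was at 285 and 914 CPM in KO1 and KO2, against 126 and 50.8 CPM in WT1 and WT2, and 98.5% of its KO2 UMIs were in 1 well. The list shares Col1a1 and Col3a1 with the fibroblast markers and Acta2 and Tagln with the smooth muscle markers, and Vim is also a fibroblast gene. The summed shares of the markers of these cell types were higher in the same wells of both KO animals, but single markers differed. The fibroblast marker Dcn was at 7685 and 2325 CPM in KO1 and KO2, against 2795 and 3094 CPM in WT1 and WT2. The smooth muscle marker Acta2 was at 154 and 26.9 CPM in KO1 and KO2, against 90.5 and 32.7 CPM in WT1 and WT2. Both were thus lowest in KO2. All 8 fibroblast markers had UMIs and together held 2.08% and 0.634% in KO1 and KO2, against 0.443% and 0.584% in WT1 and WT2. The 6 pericyte markers held 0.0549% and 0.108% in KO1 and KO2, against 0.0141% and 0.0102% in WT1 and WT2. The 4 smooth muscle markers held 0.0194% and 0.0346% in KO1 and KO2, against 0.0124% and 0.00610% in WT1 and WT2. No pericyte or smooth muscle marker was at 0 over these wells, and the part of these cell types in the result was not tested.

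All 6 MHC class II genes tested, which encode the antigen-presentation molecules of macrophages and of some endothelium, had a negative sign in KO. Of these, 5 did not overlap, against 37% of all genes, and none had an unadjusted p under 0.05 in edgeR. The median was -1.26, against 0.01 over all genes. H2-Aa was at 216 and 250.1 CPM in KO1 and KO2, against 1041 and 702 CPM in WT1 and WT2 (log2 fold change -1.48, SE 1.00). H2-Ab1 was at 549 and 1286 CPM in KO1 and KO2, against 2219 and 1812 CPM in WT1 and WT2 (log2 fold change -0.58, SE 0.92). The summed share of the 8 macrophage markers, all with UMIs, was also lower in KO. It was 0.0741% and 0.0669% in KO1 and KO2, against 0.0920% and 0.337% in WT1 and WT2. These values did not overlap, but 1 well gave most of the WT2 macrophage-marker UMIs, and the lack of overlap rested on it. That well was at 1.27% and held 22.4% of the WT2 UMIs outside mitochondrial and haemoglobin genes. The part of macrophage transcripts in the result was not tested.

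**Figure D5:**
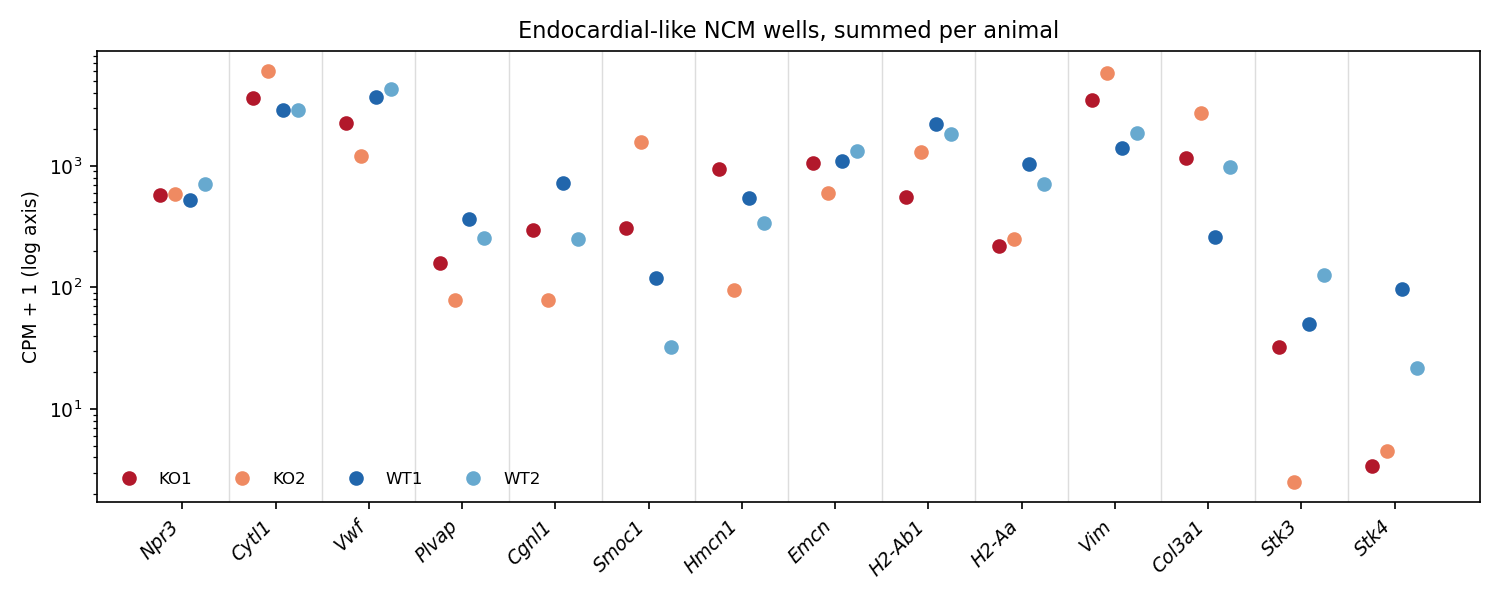
Level of 14 genes (CPM + 1, log axis) in the endocardial-like NCM wells of KO1, KO2, WT1 and WT2, 1 point per animal, KO left of WT in each panel. Stk3, Stk4, H2-Aa and H2-Ab1 are lower and Vim and Col3a1 higher in both KO animals, and none of the 14 passed the adjusted threshold in edgeR.

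The plot of levels by genotype also shows the rule and endocardial genes. Of 17 other endocardial genes tested, 10 had a positive and 7 a negative sign, and 2 had an unadjusted p under 0.05, both higher in KO, namely Smoc1 (log2 fold change 4.30, SE 1.34) and Tmem108 (4.07, SE 1.47). Smoc1 rested on 1 KO2 well for most of its KO2 UMIs, as given above. Of 17 capillary genes, 8 had a positive and 9 a negative sign, and none had an unadjusted p under 0.05. YAP target genes (10 tested, 7 positive, 2 with an unadjusted p under 0.05) and Hippo core genes (12 tested, 5 positive, none) gave no adjusted call in edgeR either.

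The 16 named genes with the smallest p among those that reached 20 CPM and did not overlap between genotypes had an adjusted p of 0.539, none passed, and many rested on a few wells. Ccl21a, a chemokine of lymphatic endothelium, was at 25.5 and 11.7 CPM in KO1 and KO2, against 735 and 374 CPM in WT1 and WT2 (log2 fold change -4.67, SE 1.26). It had UMIs in 7 of 14 and 13 of 21 KO wells, against 14 of 19 and 19 of 27 WT wells, but 1 well gave 78.9% of the WT1 UMIs. Depp1, a FOXO target, was at 137 and 30.9 CPM in KO1 and KO2, against 2743 and 629 CPM in WT1 and WT2 (log2 fold change -4.23, SE 1.17), and 1 well gave 95.7% of its WT1 and another 60.3% of its WT2 UMIs. Prr14, a nuclear lamina protein, had the lowest p of those higher in KO, and its UMIs came from 1 of 14 wells in KO1 and 3 of 21 in KO2. The others were Dhx58, Pigg, Ptprd, Lmo2, Relch, Rsad2 and Cnst, higher in KO, and Borcs8, Fam124a, Mtif2, Atp6v0d1, Thsd7a and Pik3cg, lower in KO.

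Whether the KO difference itself differed between endocardial-like and other endothelial wells was tested as an interaction. Of 11146 genes, 0 passed in edgeR (0%), 421 reached an unadjusted p under 0.05 (3.78%), of which 200 had a positive (1.79%) and 221 a negative sign (1.98%). With DESeq2 158 genes passed, and the edgeR count was 100 without KO1. None of the 6 MHC class II genes had an unadjusted p under 0.05 in this test. The 16 genes named by smallest p, none of which passed, were Alox15, Lmo2, Tmem108, Eepd1, Cnst, Rab10os, Ptprd and Gbp3 with a positive and Fam124a, Mtif2, Ccdc191, Hlf, Borcs8, Blvrb, Gstk1 and Slc20a2 with a negative interaction.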

How the data were processed

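UMI counts per gene and well were deposited by the authors for 4 chips, with a per-well table that names the animal and fraction. The submitters' processing notes name mm10 as the genome build, STAR 2.5.2b, and featureCounts with Subread 1.4.6-p1; the sources used here do not give annotation, strand or UMI collapsing, so reads of overlapping or antisense genes cannot be told apart. Replicate numbers follow accession order and pair nothing. The members and gene lists were chosen with earlier results of these data known.

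Wells were kept at 10000 UMIs and 300 genes. CPM are counts scaled to 1000000 UMIs outside mt-, Hba- and Hbb- genes, with sums of the NCM wells per animal. Counts were tested with edgeR 4.0.16 in R 4.3.3 (quasi-likelihood, TMM, filterByExpr, Benjamini-Hochberg at 0.05), checked on simulated counts, with the animal as block for the 2 kinds of well; nothing says that animals were processed separately, so p-values may measure technical spread. DESeq2 1.42.0 was an alternative, as were other gates, scalings, filters and left-out animals. Doublets were called with scanpy 1.11.5 (Scrublet) and kept. Wells rich in other markers held at least 1% of fibroblast, macrophage, neutrophil or cardiomyocyte markers. The macrophage-marker wells used for comparison also had at least 2 macrophage markers detected.

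Genes named were the 10 largest rises and falls past the threshold with 20 CPM and 1 direction in 4 animals; between genotypes the 8 largest each way, filled by smallest p; and 2 to 4 members per list by level. Apoe, Cdh11, Nfatc1, Nrg1, Gata4, Gata5, Gata6, Foxc1, Tbx20, Hand2, Kdr, Hey1, Bmp6, Zeb2 and the genes of the equal-depth test were named after their values were seen. Promoter sequences are from RefSeq (GRCm38.p6); Smoc1, Vwf and Cpe are named only. Of the 13 genes past the threshold between kinds of well, 1 is not reported here.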

Additional observations from a re-analysis of the deposited data

How the results depend on the processing

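The 13 calls between endocardial-like and other endothelial wells became 28 with library totals in place of TMM, 471 with DESeq2, 48 with no filter on low counts, 24 at a gate of 0.1%, 27 at 0.4%, 69 at equal depth and 6 without the replicate block of animals; with library totals the split was 12 higher and 16 lower. The median of all genes was -0.49 with TMM, -0.87 with library totals and -0.36 with DESeq2 size factors. Leaving out 1 animal at a time gave 1 to 24 calls. No named gene reversed; of their values under other settings 161 kept and 15 lost the call, and with an animal left out 22 kept and 26 lost it. The endocardial list's median stayed at 3.18 to 4.42 and the capillary list's at -2.69 to -1.72. Between genotypes the 0 calls became 1 with library totals, 71 with no filter and 253 with DESeq2, and 0 to 246 with an animal left out. For the interaction they became 2 with library totals or a 0.4% gate, 6 with DESeq2 size factors, 158 with DESeq2, 3 with no filter, 3 with mitochondrial and haemoglobin genes kept, 6 where Npr3 or Cytl1 was required, 3 at 20000 UMIs, 2 without wells rich in other markers, 3 with at least 2 pan-endothelial genes, and 0 to 100 with an animal left out. The share of kept wells, KO minus WT, reversed to 0.0122 points at a 0.1% gate and 0.685 points on the CM chips, while both KO animals lay below both WT animals in 6 of 11 alternatives; with an animal left out it was -1.46 to -0.361 points, and that of endothelial wells -20.8 to -4.66 points. Without thinning, Vwf, Plvap and Cgnl1 were detected in 90.1%, 56.8% and 64.2% of endocardial-like wells, against 82.5%, 35% and 42.5% at equal depth. Cause was not tested for any of these changes. No paired analysis was possible because the replicate numbers follow accession order and do not pair KO with WT animals. Tests on wells past the pan-endothelial gate, with at most 30% mitochondrial UMIs or from the CM chips alone were not run, since a sum then held fewer than 5 wells. With 14 to 27 wells and 2 animals per genotype, single deep wells limit what can be detected.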
